A study of Mus musculus with 10 samples.

Results

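Solute carriers (Slc genes) move sugars, amino acids, nucleotides, metals and ions across cell and organelle membranes, and ABC transporters (Abc genes) do so with the energy of ATP. A pre-mRNA of such a gene can end early when it is cleaved and polyadenylated inside an intron, which gives a shorter RNA that lacks the coding exons beyond that point. The U1 small nuclear RNA pairs with 5' splice sites and is known to hold back such early ends. The members described here are all genes of the deposited tables of intronic polyadenylation (IPA) whose symbol begins with Slc and a digit or with Abc, a letter and a digit. There were 25 of them among 1452 genes, 19 Slc and 6 Abc, with 30 distinct intronic sites among 2010. The rule reads symbols only, so it also takes in 3 genes that are not transporters: Abce1 recycles ribosomes, Abcf1 acts in translation initiation, and Slc7a6os is named for its place opposite Slc7a6.

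The data were 3'-end sequencing libraries of polyadenylated RNA from mouse mammary tumour cell lines related to 4T1, 10 libraries in 5 groups of 2. The lines 67NR and 168FARN are labelled non-invasive and the series design calls them non-metastatic; 4T07 and 4T1 are labelled invasive and called metastatic. The last group, 4T1-U1-ASO, was 4T1 treated with an antisense morpholino against U1 and a delivery reagent at 6 µl/mL; its control was mock-transfected by the series design, although the sample labels name no treatment for 4T1. All cells were grown in the same serum-containing medium, each line is a single line, and separate cultures are not stated for the 2 libraries of any group. The p-values therefore set group differences only against the spread between the 2 libraries of a group, estimated with help from all sites tested. That spread may be technical. The peak lists held 1427728 to 3347776 reads per library, the lowest in the incomplete list of 67NR replicate 2, which covers 10 chromosomes. Of the marker genes looked up, the tables name 2 of 10 epithelial, 5 of 10 mesenchymal and 0 of 8 for other cells. Spint2, an epithelial protease inhibitor, had 786 to 1167 normalized last-exon reads in 4T1 and 4T07 and 0 to 4.74 in 67NR and 168FARN. The mesenchymal factor Twist2 went the other way, with 0 to 2.42 in 4T1 and 4T07 and 46.6 to 312 in 67NR and 168FARN. Prrx1 had 0 to 2.36 in 4T1 and 355 and 458 in 168FARN, and Sparc 7009 and 7941 in 4T07 and 13811 and 16129 in 67NR. With U1-ASO, vimentin (Vim) had 2186 and 2407 against 13475 and 17340 in 4T1, fibronectin (Fn1) 1512 and 1599 against 2639 and 2883, and E-cadherin (Cdh1) 1041 and 1080 against 985 and 1109. The part of these differences in the results on the members was not tested.

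Usage is the percentage of reads at the intronic site among the reads at that site and at the last exon of the same gene, so library scaling cancels in it. Reads were recovered from the normalized values in the tables, positions are 1-based on mm9, and the sites are intronic on the authors' word. The tables list only sites that the authors called at an adjusted p of at most 0.1. For that reason a listed difference in usage carries no test here: the edgeR model of site relative to last exon called all members, 21 of 21 with U1-ASO and 4, 4, 2 and 6 in the comparisons of lines, beside 100% of all sites tested in each of the 5 comparisons. The separate changes at the site and at the last exon were tested with edgeR at an adjusted p under 0.05. These tests ran on the same listed sites, so the selection favoured a change at the site, at the last exon or at both. Their p-values carry that selection, and their counts are given beside the shares over all listed sites. A permutation test of 2 libraries against 2 cannot go below p = 0.333, so none is given. A site or last exon with fewer reads may reflect fewer RNA molecules of that form or fewer cells that make it, which bulk libraries cannot tell apart.

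With the U1 antisense oligonucleotide, 21 sites in 18 member genes were listed against 4T1, 14 with higher and 7 with lower usage. Among all 1561 sites listed in this comparison, 87.6% were higher, against 66.7% of the members. Higher usage was found in mitochondrial carriers (Slc25a3, Slc25a25, Slc25a48), amino acid carriers (Slc1a5, Slc3a2, Slc38a1) and the phosphate carrier Slc20a2. Lower usage was found at both sites of the iron carrier Slc11a2 and in Slc35b2, Slc22a4 and Abcc10, among others. The median absolute difference in usage was 8.68 percentage points for the member sites and 4.6 for all listed sites.

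**Figure D1:**
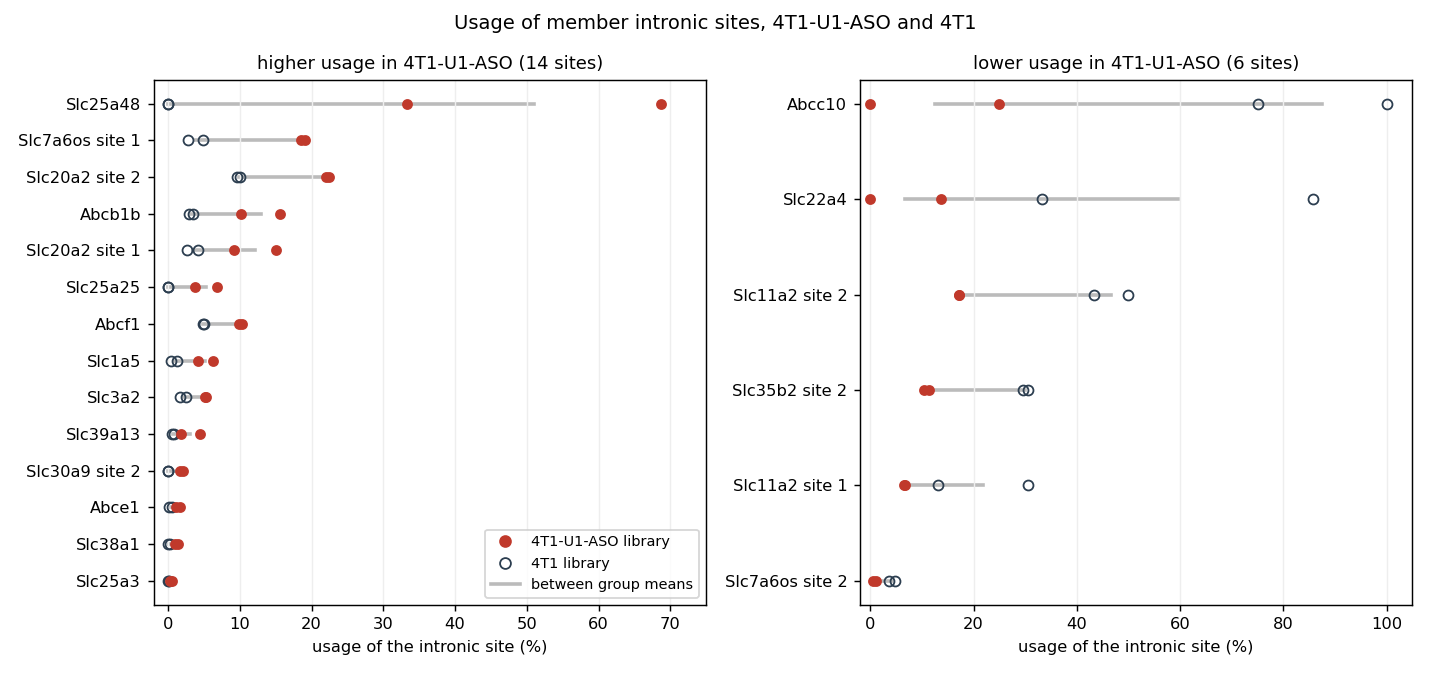
Usage of 20 of the listed intronic sites in percent (x axis), with 14 higher sites on the left and 6 lower sites on the right; each point is 1 library, filled for 4T1-U1-ASO and open for 4T1, and the grey bar joins the group means. The 2 groups do not overlap at any site shown, as at 99.9% of all listed sites, and the spread between libraries is widest for Slc25a48, Slc22a4 and Abcc10.

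The amino acid carriers had small shares of intronic ends. Slc3a2 is the CD98 heavy chain, the common partner of several amino acid exchangers. Its site, chr19:8786666-8787464, held 67 and 58 reads in the 4T1-U1-ASO libraries and 11 and 15 in 4T1, while its last exon held 1184 and 1073 against 656 and 586. Usage was 5.24% ± 0.161 against 2.07% ± 0.599 (SD, n = 2), and the site reads rose by a log2 change of 1.68 ± 0.39 (SE, edgeR adjusted p = 0.000263). Both treated libraries lay above both controls. In Slc1a5, the glutamine carrier ASCT2, the site chr7:17370725-17370842 held 15 and 9 reads with U1-ASO and 2 and 6 without. Its usage was 5.2% ± 1.52 against 0.831% ± 0.603, and here the last exon fell, from 492 and 471 reads to 224 and 209 (log2 change -1.76 ± 0.22, edgeR adjusted p = 0.00058). The site reads of Slc1a5 did not pass the test (0.99 ± 0.62, edgeR adjusted p = 0.14). Slc38a1, a sodium-coupled neutral amino acid carrier, had 7 and 5 site reads (chr15:96409067-96409265) against 1 and 0, beside 479 and 550 last-exon reads against 382 and 442. Its normalized site reads were 8.03 times those of 4T1, with a 95% counting interval of 1.19 to 343.

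Mitochondrial carriers were higher at all 3 of their listed sites. Slc25a3 carries phosphate into the matrix for ATP synthesis, and its last exon fell from 4403 and 4432 reads in 4T1 to 1423 and 1444 with U1-ASO. That fall was a log2 change of -2.23 ± 0.22 (edgeR adjusted p = 0.000298), while the site itself, chr10:90585115-90585316, held only 7 and 4 reads against 1 and 4 and did not pass the test (0.54 ± 0.81, edgeR adjusted p = 0.538). Its usage, 0.383% ± 0.151 against 0.0564% ± 0.048 (SD, n = 2), was the lowest of any member site in treated cells. Slc25a25 is a calcium-regulated ATP-Mg/phosphate carrier. Its site chr2:32276837-32277119 held 14 and 9 reads with U1-ASO and 0 and 0 in 4T1, beside 191 and 230 last-exon reads against 130 and 106. The 0 of 236 control reads allow a usage of up to 1.26% (3 counts over the group). The mean of 5.3% ± 2.2 with U1-ASO was 4.22 times that limit, with its libraries at 6.83% and 3.77%. Slc25a48, a less studied member of the same family, rests on few reads: 3 and 11 at chr13:56573015-56573266 against 0 and 0, with 5 to 7 last-exon reads per library. Its usage of 33.3% and 68.8% compares with a limit of 20% that the 12 control reads allow. These intervals and limits cover counting error only.

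Slc20a2, a sodium-phosphate cotransporter of the plasma membrane, had 2 sites that were higher together. The upstream site, chr8:23591045-23591597, held 22 and 13 reads against 4 and 7, and the downstream site, chr8:23593251-23593804, held 35 and 37 against 16 and 17. Usage was 12.1% ± 4.14 against 3.46% ± 1.07 at the first and 22.2% ± 0.291 against 9.83% ± 0.241 at the second (SD, n = 2), with the 4 libraries of the second site the more even. Last-exon reads were 124 and 128 with U1-ASO and 144 and 159 without, a log2 change of -0.86 ± 0.22 on the authors' scale (edgeR adjusted p = 0.0106). Neither site passed the test of its own reads on that scale (edgeR adjusted p = 0.0703 and 0.211).

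Metal carriers went both ways. Slc11a2, the iron carrier DMT1, is known for alternative 3' ends that give mRNAs with or without an iron-responsive element; which end these sites match was not looked up. Its larger site, chr15:100222997-100223924, held 24 and 29 reads with U1-ASO and 56 and 80 in 4T1. Usage was 17.2% ± 0.0753 against 46.7% ± 4.66 (SD, n = 2), and the site reads fell by 1.93 ± 0.33 on the log2 scale (edgeR adjusted p = 2.26e-06). The smaller site, chr15:100222512-100222830, held 8 and 10 reads against 32 and 12, with usage of 6.59% ± 0.115 against 21.8% ± 12.3. Its control libraries were far apart, and its call was lost without 4T1 replicate 1. The last exon they share, 115 and 140 reads against 73 and 80, did not pass the test (0.14 ± 0.25, edgeR adjusted p = 0.623). The zinc genes Slc30a9 and Slc39a13 were higher. Slc30a9 had 6 and 5 reads at chr5:67712146-67712276 and 0 and 0 in 4T1, where 0 of 337 reads allow up to 0.882%. Its mean usage of 1.87% ± 0.328 with U1-ASO was 2.11 times that limit, with its libraries at 2.1% and 1.63%. Slc39a13, the zinc importer ZIP13, had 3 and 8 site reads (chr2:90904869-90904951) against 2 and 3, and usage of 3.09% ± 1.88 against 0.678% ± 0.203. Its site reads overlapped between the groups after scaling, and its last exon fell, from 372 and 362 reads to 167 and 173 (-1.72 ± 0.20, edgeR adjusted p = 0.000489).

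Slc35b2 carries PAPS, the sulfate donor, into the Golgi, and it was lower at both ends. The site chr17:45702660-45703009 held 10 and 12 reads with U1-ASO and 80 and 62 in 4T1, and the last exon 78 and 104 against 191 and 141. The site fell by 3.29 ± 0.39 and the last exon by 1.5 ± 0.33 on the log2 scale (edgeR adjusted p = 2.24e-10 and 0.0053). Usage was 10.9% ± 0.72 against 30% ± 0.722 (SD, n = 2), with each group tightly together. Slc22a4, the organic cation carrier OCTN1, had 3 and 0 reads at chr11:53827755-53827941 against 18 and 8 in 4T1. The 4T1 libraries were unlike each other, since the last exon held 3 and 16 reads and usage was 85.7% and 33.3%, against 13.6% and 0% with U1-ASO. The 4T1 site reads were 12.9 times the treated ones after scaling, with a 95% counting interval of 3.97 to 66.8.

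Slc7a6os, the non-transporter, was the member whose 2 sites moved apart. The site nearer the last exon, chr8:108726128-108726411, rose from 9 and 6 reads to 42 and 39 (1.83 ± 0.46, edgeR adjusted p = 0.000759), and its usage was 18.8% ± 0.435 against 3.82% ± 1.44 (SD, n = 2). The site farther upstream, chr8:108732142-108732340, held 2 and 1 reads with U1-ASO and 9 and 8 in 4T1, a ratio of 8.46 in favour of 4T1 with a 95% counting interval of 2.45 to 45.1. The last exon, whose peaks in the lists carry the same reads as the table, lies 1126 bases beyond the first site and 7140 beyond the second. It held 185 and 165 reads against 177 and 208.

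Among ABC genes, 3 were higher with U1-ASO. Abcb1b, a P-glycoprotein that exports many drugs, had 10 and 6 reads at chr5:8807045-8807408 against 3 and 4, and 54 and 53 last-exon reads against 82 and 130. Its usage of 12.9% ± 3.86 against 3.26% ± 0.385 (SD, n = 2) went with a fall at the last exon (-1.55 ± 0.24, edgeR adjusted p = 0.00131) and no call at the site (0.60 ± 0.69, edgeR adjusted p = 0.427). The 2 ends of Abcb1b are 58486 bases apart, the widest gap among the 12 member genes whose last exon could be placed in the peak lists; the narrowest was that of Slc7a6os. Abcf1 had the most site reads among the higher members, 73 and 70 at chr17:36101194-36101516 against 36 and 38. Its usage was 10.0% ± 0.29 against 4.93% ± 0.118, and its last exon held 669 and 613 reads against 682 and 746. Abce1 had 18 and 26 site reads (chr8:82211197-82211647) against 2 and 1, a ratio of 9.82 with a 95% counting interval of 3.15 to 49.4. Its last exon held 396 and 1240 reads in the 2 control libraries, which were unlike each other, and 1553 and 1551 with U1-ASO, and its usage call was lost without 4T1 replicate 2.

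Abcc10, a multidrug exporter of the MRP group, had the highest 4T1 usage of the members listed with U1-ASO, 87.5% ± 17.7, on very few reads. Its site chr17:46459805-46460036 held 5 and 9 reads in 4T1 and 1 and 0 with U1-ASO, and its last exon 0 and 3 against 3 and 10.

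Read by which end changed, the 14 higher sites formed 2 sets on the authors' scale. At 7 of them (Abcb1b, Abcf1, Slc1a5, both Slc20a2 sites, Slc25a3, Slc39a13) the last exon fell and the site did not pass the test. At the other 7 the site rose, and among these only Slc7a6os also had a fallen last exon. All 7 lower sites fell in their own reads. Several of these site calls rest on few reads. Higher calls dropped from 7 to 4 with DESeq2, where calls in either direction over all listed sites dropped from 1080 to 376. Leaving out any library also lowered the higher calls, as it did the calls over all listed sites. Slc38a1 and Slc30a9 lost theirs with DESeq2, with the replicate block, without either U1-ASO library and without 4T1 replicate 2, and Slc25a48 with DESeq2 and without either 4T1 library. Among the falls, Abcc10 was lost with DESeq2 and without 4T1 replicate 2, the upstream Slc7a6os site with DESeq2 and without 4T1-U1-ASO replicate 2, and Slc22a4 and the smaller Slc11a2 site without 4T1 replicate 1. Slc3a2, Slc25a25, Abce1, the nearer Slc7a6os site, the larger Slc11a2 site and Slc35b2 were called in all 9 alternatives run. In total 14 of 21 member sites changed in their own reads, 7 up and 7 down, beside 69.2% of all listed sites (891 up and 189 down). The last exon changed in 8 of 18 member genes, each time downwards, beside 64.3% of all genes listed (106 up and 621 down). That direction depended on the 4T1 libraries. Without 4T1 replicate 2, and without 4T1 replicate 1, some member last exons were called higher, although more were called lower. Without either U1-ASO library all member last exons called were lower, and the falls of Abcf1, Slc20a2 and Slc7a6os were lost. Fewer last exons over all genes listed were called there too. The median log2 change of last-exon reads was -0.49 over the 18 members and -0.66 over all genes listed.

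This split depends on the scaling. Scaling by all merged peaks of the lists in place of the authors' factors, an alternative chosen after seeing the data, moved the log2 changes of this comparison up by 0.46 on the scale of the factors. Then 18 of 21 member sites were called, 11 up and 7 down, beside 1309 of all 1561 listed sites. Of 18 member last exons 7 were called, beside 527 of all 1131. These were 2 up (Slc3a2, Slc30a9) and 5 down (Slc25a3, Slc39a13, Abcb1b, Slc1a5, Slc35b2). Those 5 falls were called under both scalings. Abcf1, Slc1a5 and both Slc20a2 sites were called higher in their own reads only under the second.

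**Figure D2:**
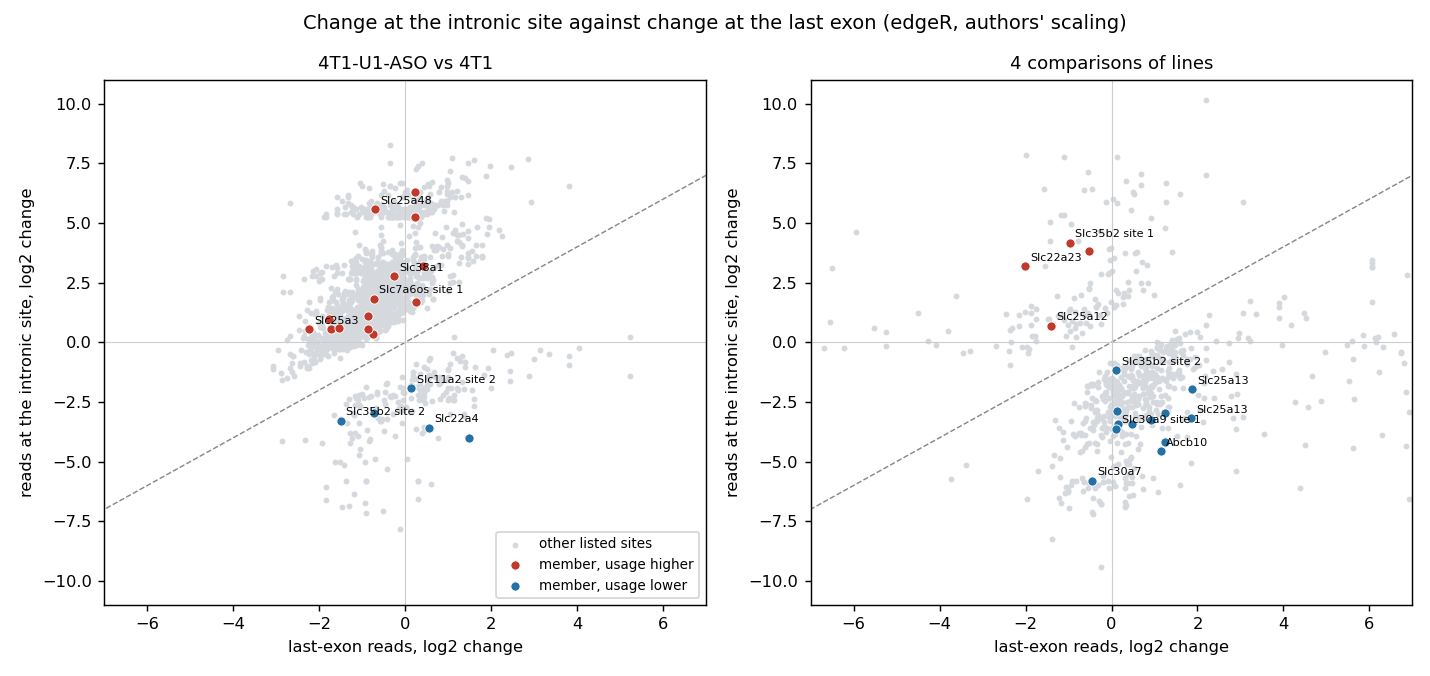
Log2 change of reads at the intronic site (y axis) against log2 change of last-exon reads (x axis) on the authors' scale, on the left for U1-ASO and on the right for the 4 comparisons of lines; red points are member sites with higher usage, blue with lower usage, grey listed sites of other genes, and the dashed line marks equal change. Only some members carry a name, and a few other sites lie beyond the axis. With U1-ASO the red points lie left of or near 0 on the x axis, and in the lines the Slc25a13 points lie at the right, where last-exon reads were higher.

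In the comparisons of lines, 16 listings of 10 member sites in 9 genes were found, 12 with lower and 4 with higher usage in the metastatic line. That is 75% lower, beside 79.3% of all 750 listings. Slc25a13 was lower in both metastatic lines against both non-metastatic ones, and all 5 listings of zinc carriers of the Slc30 family were lower. Higher usage was found for Slc22a23, Slc25a12, 1 site of Slc35b2, and Abcb10 in 1 of its 2 comparisons. The comparisons share groups (4T1 and 4T07 were each set against the same 67NR and 168FARN libraries), so their results are not independent.

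**Figure D3:**
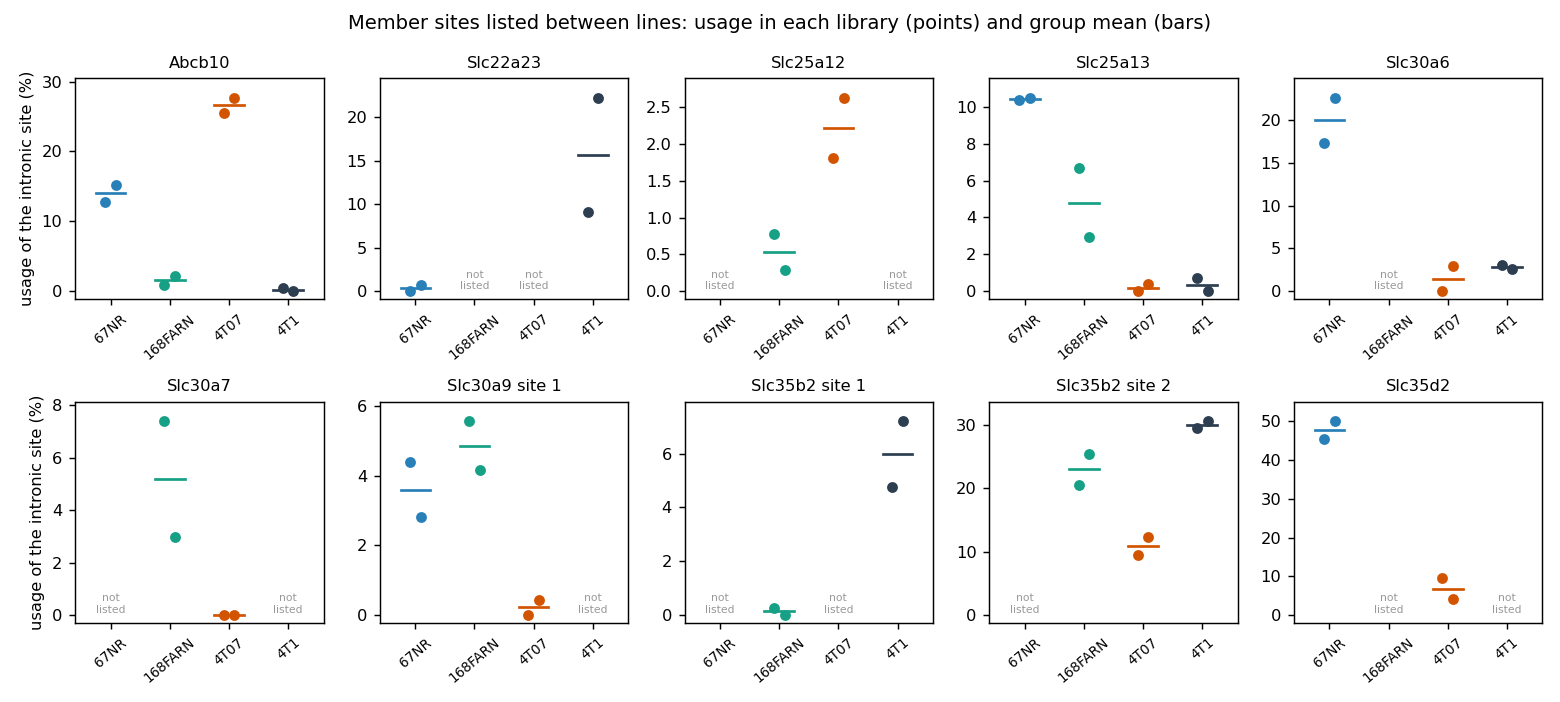
Usage in percent (y axis, own range in each panel) of the 10 member sites listed between lines; each point is 1 library, the bar is the mean of 2, and groups with no table entry are marked as not listed. Slc25a13 is near 0 in 4T07 and 4T1, and Abcb10 is high in 67NR and 4T07 and low in 168FARN and 4T1.

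Slc25a13 makes citrin, the mitochondrial carrier that exchanges aspartate for glutamate. It was listed in all 4 comparisons of lines, as were 15 of 449 genes. Its site, chr6:6128295-6128477, held 12 and 13 reads in 67NR, 7 and 3 in 168FARN, 2 and 0 in 4T1, and 0 and 1 in 4T07. The last exon ran the other way, with 104 and 111 reads in 67NR, 98 and 99 in 168FARN, 275 and 338 in 4T1, and 196 and 255 in 4T07. Usage was 10.4% ± 0.0983 in 67NR, 4.8% ± 2.63 in 168FARN, 0.361% ± 0.511 in 4T1 and 0.195% ± 0.276 in 4T07 (SD, n = 2 each). The non-metastatic lines lay above the metastatic ones without overlap, and 4T1 and 4T07 did not differ beyond their spread. The last exon rose in all 4 comparisons, by 1.84 ± 0.23 in 4T1 and 1.25 ± 0.15 in 4T07 against 67NR, and by 1.88 ± 0.18 and 1.25 ± 0.13 against 168FARN (log2, edgeR adjusted p = 1.53e-12, 0.00019, 2.39e-08 and 4.56e-05). The site fell in both comparisons with 67NR, where 67NR held 9.94 times the normalized reads of 4T1 and 21.9 times those of 4T07 (95% counting intervals 2.48 to 86.6 and 3.59 to 901). Against 168FARN the ratio was 4.21 (0.898 to 39.5) for 4T1, which did not pass the test (edgeR adjusted p = 0.196). For 4T07 it was 9.58 (1.36 to 416; edgeR adjusted p = 0.0136), a call lost with DESeq2, with the replicate block and without either 4T07 library.

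Its close relative Slc25a12, which makes the other aspartate-glutamate carrier, was listed once and in the opposite direction. The site chr2:71167794-71167998 held 4 and 7 reads in 4T07 and 5 and 2 in 168FARN, so the site reads themselves overlapped. The last exon held 218 and 260 reads against 635 and 685, a fall of 1.4 ± 0.10 on the log2 scale (edgeR adjusted p = 4.7e-06). The 4T07 usage of 2.21% ± 0.58 compared with 0.536% ± 0.347 for 168FARN (SD, n = 2), and its call was lost without 4T07 replicate 2.

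Most zinc carriers of the Slc30 family move zinc out of the cytosol, from the cell or into organelles. Slc30a6, of the Golgi, had 18 and 21 reads at chr17:74794971-74795529 in 67NR, 2 and 2 in 4T1, and 0 and 3 in 4T07. Its last exon held 86 and 72 reads in 67NR, 62 and 75 in 4T1, and 95 and 99 in 4T07. Usage was 19.9% ± 3.73, 2.86% ± 0.373 and 1.47% ± 2.08 in that order (SD, n = 2 each), so both metastatic lines lay below 67NR and did not differ from each other beyond their spread. The site fell by 2.89 ± 0.48 in 4T1 (edgeR adjusted p = 0.000603), and 67NR held 11.4 times the normalized reads of 4T07 (95% counting interval 3.63 to 57.7). Slc30a9 had a second site, chr5:67710205-67710596, distinct from the one listed with U1-ASO. It held 10 and 7 reads in 67NR, 6 and 6 in 168FARN, and 0 and 1 in 4T07, with usage of 3.59% ± 1.12, 4.86% ± 0.982 and 0.217% ± 0.307. Its last exon held 218 and 243 reads in 67NR, 102 and 138 in 168FARN, and 206 and 229 in 4T07. The last exon did not pass the test against 67NR (edgeR adjusted p = 0.524) and rose against 168FARN (0.92 ± 0.14, edgeR adjusted p = 0.000483). The fall at its site was lost without 67NR replicate 1 against 67NR, and with DESeq2, without 4T07 replicate 1 and without either 168FARN library against 168FARN. Slc30a7, a zinc carrier of the secretory pathway, was listed only in 4T07 against 168FARN. Its site chr3:115680300-115680499 held 0 and 0 reads in 4T07 and 9 and 5 in 168FARN, beside 100 and 92 last-exon reads against 113 and 163. The 0 of 192 reads in 4T07 allow up to 1.54%, and the 168FARN libraries lay above that limit at 7.38% and 2.98%, unlike each other. The fall at the site was lost without 168FARN replicate 1 (edgeR adjusted p = 0.0535).

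Golgi carriers of the Slc35 family were listed at 3 sites. Slc35d2 carries nucleotide sugars and was near even usage of its 2 ends in 67NR. Its site chr13:64213124-64213229 held 20 and 19 reads in 67NR and 2 and 1 in 4T07, while the last exon held 24 and 19 against 19 and 23 and did not pass the test (0.15 ± 0.33, edgeR adjusted p = 0.706). Usage was 47.7% ± 3.21 in 67NR and 6.85% ± 3.79 in 4T07 (SD, n = 2). Slc35b2 had 2 sites. The downstream one, which was lower with U1-ASO, held 36 and 58 reads in 4T07 and 94 and 125 in 168FARN, with last-exon reads of 342 and 413 against 363 and 366. The site fell by 1.16 ± 0.24 (log2, edgeR adjusted p = 5.83e-06) and usage was 10.9% ± 1.97 against 23% ± 3.46. The upstream one, chr17:45701961-45702434, held 9 and 10 reads in 4T1 and 1 and 0 in 168FARN, where the last exon held 180 and 129 reads against 363 and 366 (-0.97 ± 0.20, edgeR adjusted p = 0.000298). Its site reads in 4T1 were 22.6 times those in 168FARN, with a 95% counting interval of 3.58 to 937, and this call was lost with DESeq2 and without either 4T1 library. The 4T1 last-exon reads of Slc35b2 differ between tables (191 and 141 in the U1-ASO table), so its usage is not set side by side across them.

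Abcb10, a mitochondrial ABC protein that takes part in haem synthesis, was lower in 4T1 than in 67NR and higher in 4T07 than in 168FARN. The site chr8:126481583-126481819 held 16 and 20 reads in 67NR, 26 and 31 in 4T07, 1 and 3 in 168FARN, and 1 and 0 in 4T1. Usage was 26.6% ± 1.55 in 4T07, 14.0% ± 1.74 in 67NR, 1.58% ± 0.868 in 168FARN and 0.248% ± 0.35 in 4T1 (SD, n = 2 each). So 1 metastatic and 1 non-metastatic line were high and 1 of each was low, and neighbours in that order did not overlap. Its last exon held 109 and 111 reads in 67NR, 201 and 181 in 4T1, 76 and 81 in 4T07, and 103 and 134 in 168FARN. It rose in 4T1 (1.14 ± 0.26, edgeR adjusted p = 4.71e-05) and fell in 4T07 (-0.53 ± 0.17, edgeR adjusted p = 0.0203), a fall lost with DESeq2, without 4T07 replicate 2 and without 168FARN replicate 2 (adjusted p up to 0.13). The orphan carrier Slc22a23 had 3 and 6 reads at chr13:34312782-34313254 in 4T1 and 0 and 1 in 67NR. Its last exon fell from 127 and 136 reads in 67NR to 30 and 21 in 4T1 (-2.02 ± 0.38, edgeR adjusted p = 1.29e-06). The site reads of 4T1 were 11.3 times those of 67NR after scaling, with a 95% counting interval of 1.57 to 496, and this call was lost with DESeq2, with the replicate block and without 67NR replicate 1.

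By reads at the site alone, 4 of 4 member sites changed in 4T1 against 67NR, 4 of 4 in 4T07 against 67NR, 1 of 2 in 4T1 against 168FARN and 5 of 6 in 4T07 against 168FARN. The corresponding shares of all listed sites were 83.6%, 86.4%, 65.1% and 78.1%. Last-exon reads changed in 3 of 4, 1 of 4, 2 of 2 and 4 of 6 member genes, beside 63.2%, 60%, 64.6% and 77.1% of all genes listed. With 2 to 6 members in each comparison, these counts show nothing particular to the members. In 11 of the 12 listings with lower usage the site fell, in 6 of the 12 the last exon rose, and the site reads of Slc25a13 in 4T1 against 168FARN were the 1 exception.

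A test over all merged peaks of the lists takes its background from all peaks, not only from sites that the authors called. The members in it are still sites the authors called in the same comparison, or last exons of those genes. Their counts beside that background therefore carry the selection. Few members could enter the test. The filtered lists carry no peak at 22.3% of the member site values where the tables give reads (33.3% for all listed sites), so a site without a peak is not a site without reads. With U1-ASO, 7 of the 20 member sites on the chromosomes covered passed the filter on low counts and 3 were called: Slc35b2 and the larger Slc11a2 site fell (-2.83 ± 0.35 and -1.48 ± 0.25, edgeR adjusted p = 0.031 and 0.037) and the nearer Slc7a6os site rose (2.26 ± 0.41, edgeR adjusted p = 0.0398). Of all merged peaks, 23.4% were called. Slc30a6 fell in 4T1 against 67NR (1 of 1 tested, beside 18.6%), Slc35d2 fell in 4T07 against 67NR (1 of 2, beside 29.1%), and in 4T07 against 168FARN Abcb10 rose and Slc35b2 fell (2 of 2, beside 33.3%). In 4T1 against 168FARN the 1 site tested, in Slc35b2, did not pass (4.14 ± 0.98, edgeR adjusted p = 0.0609, beside 21.9%), although its unadjusted p was 0.0152 and DESeq2 called 1 of 1. In the fits of the comparisons that list them, 3 of 12 member last exons passed, taken by their highest peak. Most of the 12 were tested with U1-ASO, where 23.4% of all merged peaks were called. In 4T1 and 4T07 against 67NR (18.6% and 29.1%) 1 each was tested. Slc25a3, Slc1a5 and Slc22a23 fell (-1.76 ± 0.13 and -1.29 ± 0.16 with U1-ASO, -1.94 ± 0.38 in 4T1 against 67NR, edgeR adjusted p = 0.0297, 0.031 and 0.0463). Abcb1b, Abcf1 and Slc7a6os, whose last exons fell on the authors' scale, did not pass here (-1.10 ± 0.24, -0.29 ± 0.12 and -0.27 ± 0.15, edgeR adjusted p = 0.0545, 0.175 and 0.263).

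For member genes whose last exon could be placed in the lists by equal reads, usage was also read in groups that the tables do not cover. This is a description, chosen after seeing the data. At the larger Slc11a2 site, usage was 57.2% and 46.3% in the 168FARN libraries, 43.4% and 50% in 4T1, 30.8% and 36.8% in 4T07, 26.3% and 25.4% in 67NR, and 17.3% and 17.2% with U1-ASO. 168FARN and 4T1 overlapped, and every other neighbour in that order was apart. The 4T1 libraries were among the highest and the U1-ASO libraries lay below all 4 lines. At the smaller site all 4 lines lay between 7.5% and 30.5%, with wide spread within groups, and both U1-ASO libraries lay below them at 6.5% and 6.67%.

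Slc22a4 used its intronic site at 19.1% to 36.5% in the 6 libraries of 67NR, 168FARN and 4T07, whose groups overlapped. The 2 U1-ASO libraries, at 13.6% and 0%, lay below all others, and 4T1 replicate 1, at 85.7% on 21 reads in all, stood apart from the rest. Slc22a23 usage was 0.73% at most in 67NR, 1.23% to 2.92% in 4T07 and 168FARN, 2.2% and 3.92% with U1-ASO, and 9.09% and 22.2% in 4T1. Its last-exon reads were 127 and 136 in 67NR, 160 to 266 in 4T07 and 168FARN, and 21 to 49 in 4T1 and 4T1-U1-ASO. Slc35d2 was used at 20% and 16.1% in 168FARN, between 67NR and 4T07. In 4T1 only replicate 1 had a peak at this site (17.4%, on 4 site reads). With U1-ASO only replicate 2 had one (6.38%, on 3 site reads). Slc25a3 usage stayed at 0.0227% to 0.263% in the libraries without U1-ASO that had a peak, below 0.276% and 0.49% with U1-ASO.

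**Figure D4:**
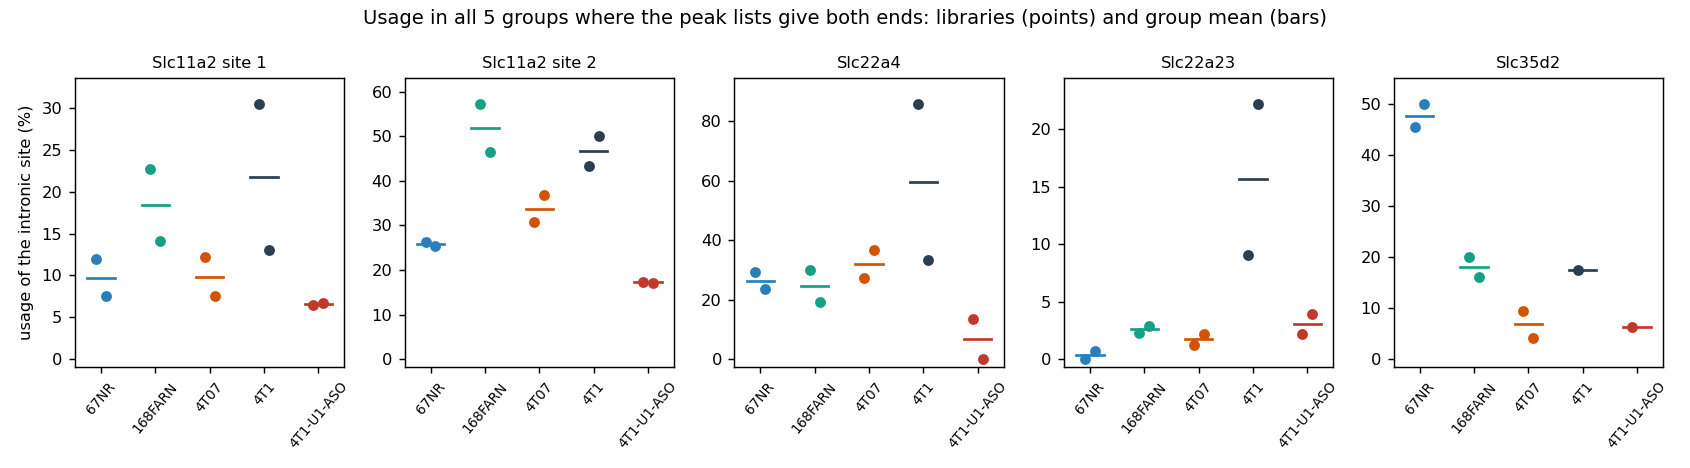
Usage in percent (y axis, own range in each panel) of 5 member sites in all 5 groups, from the tables where they list the site and otherwise from the peak lists; points are libraries and bars group means, and libraries with no peak at the site have no point. Both Slc11a2 sites and Slc22a4 are lowest with U1-ASO, and Slc22a23 is highest in 4T1.

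Other membrane transport genes (such as the chloride exchanger Clcn3, the potassium channel Kcnk2, P-type and vacuolar ATPases and mitochondrial import genes) were listed at 12 sites in 11 genes. With U1-ASO all 10 of their listed sites were higher, beside 87.6% of all listed sites. In the comparisons of lines 3 of their 5 listings were lower, beside 79.3%.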

How the data were processed

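Poly(A)+ RNA was read from its 3' ends as 50-base single reads, per the labels' protocols. Tools named by the submitters' processing notes, in no stated order, are DESeq2 1.4.5, bedtools 2.17.0, SAMtools 1.1 and Bowtie2 2.2.5, with mm9 as the build. The authors deposited filtered peak lists per library in which each peak has a read count in whole numbers. How these lists were filtered is not given in the sources used. Their deposited tables hold, per the file headers, a normalized signal for site and last exon in each of 4 libraries, a log2 fold change, its standard error, a test statistic (score), and p-values with adjusted p-values. These deposited values were used to find the listed sites and directions, and the first-named group is always the metastatic line or U1-ASO.

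The signal steps gave whole reads for 100% of values (tolerance 0.1 read). For all tests edgeR 4.0.16 was run under R 4.3.3 (quasi-likelihood, the authors' factors, at least 5 reads over 4 libraries, Benjamini-Hochberg), over all listed sites, and peaks merged at 1 base of overlap with TMM and filterByExpr. In simulated data for 4T1-U1-ASO against 4T1 with dispersion 0.05, changes of 2 log2 units were recovered at 47% of sites relative to the last exon. The shares were 53% for site reads, 99% for last-exon reads and 89% for merged peaks, with 3 to 7 false calls per model. Most simulated sites were unchanged (1357 of 1557 relative to the last exon), unlike the selected sites of the tables. These figures are therefore not the power or error rate of the tests on listed sites. Intervals are exact (Clopper-Pearson, 95%) and cover counting error only, since no molecular identifiers were used.

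Alternatives were DESeq2 1.42.0, TMM, no filter, replicate and library blocks, a deposited adjusted p of at most 0.01, a merge gap of 25 bases and leaving out each library. The members, gene lists and tests were chosen with earlier results of these data known. The rule for named sites takes every member listed between lines, every member with 2 comparisons or 2 sites, every lower and the 20 most changed higher sites with U1-ASO, and the extremes of usage and reads in the control group. It took all 25, of which 1 is not reported here by name or drawn, but is kept in the counts. Last exons were placed in the peak lists where reads equalled those of the tables in at least 3 libraries and at least 75% of those compared, and the 12 placed were equal in 4 of 4. All 25 symbols matched the RefSeq table of GRCm38, used for names only. No mm9 sequence was used here, so no site sequence is shown.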

Additional observations from a re-analysis of the deposited data

Results flagged for a closer look

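Abcb10 went in opposite directions in 2 comparisons of a metastatic with a non-metastatic line that share no library. Its usage difference was -13.8 percentage points in 4T1 against 67NR and 25 in 4T07 against 168FARN. Both 4T1 libraries lay below both 67NR libraries, and both 4T07 libraries lay above both 168FARN libraries. The difference between these effects was not tested.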

How the results depend on the processing

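The counts below are of member sites or last exons called. For usage relative to the last exon they were 21 with U1-ASO, 4 in 4T1 and 4 in 4T07 against 67NR, and 2 and 6 against 168FARN. TMM, DESeq2, no filter and the blocks left each count as it was. Each of these settings called every site tested, so those counts could not change. Keeping only sites with a deposited adjusted p of at most 0.01 left 4, 2, 2, 1 and 4, since fewer sites were then tested. Leaving out single libraries lowered the count with U1-ASO, for members as for all sites tested. The member count was also lower in 4T1 against 67NR without 4T1 replicate 2, where fewer members were tested. In 4T07 against 168FARN it was lower without 4T07 replicate 2, and without 168FARN replicate 1, where fewer members were tested. All 21 member sites listed with U1-ASO kept their direction where tested.

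For reads at the site, DESeq2 called 9 in place of 14 with U1-ASO, 3 in place of 5 in 4T07 against 168FARN, and 0 in place of 1 in 4T1 against 168FARN (1 at an unadjusted p under 0.05). Over all listed sites DESeq2 called 376 in place of 1080 of 1561, 167 in place of 257 of 329, and 32 in place of 54 of 83, in that order. Leaving out a library leaves 1 in a group. The member count was then lower in 4T1 against 168FARN without either 4T1 library. In 4T07 against 168FARN it was lower whichever library was left out. The count over all listed sites was lower in each of these fits too. For last-exon reads with U1-ASO, leaving out a library gave 5 to 13 in place of 8, with 5 without either U1-ASO library and 13 without 4T1 replicate 2. In 4T07 against 67NR the 1 last exon called became 3 with TMM, 2 with the replicate block and 2 when scaled by all merged peaks. Over all 200 last exons tested, 120 became 149, 123 and 128, in that order. On leaving out a library, the member count moved only without 67NR replicate 1. The scaling by merged peaks moved log2 changes by 0.46 with U1-ASO and by -0.02 to 0.09 in the comparisons of lines.

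Over all merged peaks, DESeq2 called 5 in place of 3 with U1-ASO, 2 in place of 1 in 4T07 against 67NR and 1 in place of 0 in 4T1 against 168FARN. Of all peaks tested it called 5982 in place of 3772, 2743 in place of 2111 and 4917 in place of 3249. Without the low-count filter edgeR called 5 with U1-ASO and 0 in 4T1 and 4T07 against 67NR (1 and 2 at an unadjusted p under 0.05). Of all peaks it then called 6112 of 190679, 1998 of 84643 and 2615 of 89978, in that order. Leaving out a library gave 0 to 2 with U1-ASO, with 0 without either U1-ASO library and 1 without 4T1 replicate 1. It gave 0 in 4T1 and in 4T07 against 67NR without any 1 of the 4 libraries, with 0 to 2 at an unadjusted p under 0.05. Over all peaks these fits called 0 without either U1-ASO library, 0 in each fit of 4T1 against 67NR and 0 without either 4T07 library in 4T07 against 67NR, so no member could be called there. In 4T07 against 168FARN it gave 0 to 1, with 1 without 168FARN replicate 2. In 4T1 against 168FARN the site did not pass the filter without either 4T1 library. Merging peaks up to 25 bases apart changed no count. The cause of these changes was not tested.

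Samples with the same replicate number did not deviate together (correlations of deviations -0.02 to 0.07 over 7011 peaks), so the numbers are not taken as pairs. With the replicate block, edgeR over all merged peaks called 0 of all peaks in each of the 5 comparisons, and so 0 members, which says nothing about them (4 with U1-ASO, 1, 1, 0 and 2 had an unadjusted p under 0.05). For site reads the block gave 12 in place of 14 with U1-ASO, 3 in place of 4 in 4T1 against 67NR and 4 in place of 5 in 4T07 against 168FARN. Over all listed sites it called 854 in place of 1080, 95 in place of 102 and 239 in place of 257, in that order.

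Depth limits the site values, since many rest on fewer than 10 reads per library.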
